A study of Caenorhabditis elegans with 2 samples.

Results

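The genes nhl-2, puf-9, ain-1, ain-2, lin-66, alg-1 and alg-2 code for proteins of microRNA silencing or of the developmental timing that microRNAs control in Caenorhabditis elegans. They are 7 of the 19973 nuclear protein-coding genes of the annotation. They were chosen from peak calls of the same data, in which several of them were already known to carry a strong peak, so their peaks are described here without a test. For each gene, every peak was collected whose summit (the position of highest enrichment within a peak) lay between 5000 bp upstream of the annotated 5′ end and the end of the gene, a stretch called the gene span. The data are chromatin immunoprecipitation with sequencing (ChIP-seq) of GEI-8, a protein related to the vertebrate nuclear receptor corepressors NCoR and SMRT. The strain was OP589, which carries the allele unc-119(tm4063) and the insertion wgIs589, a transgene with gei-8::TY1::EGFP::3xFLAG and, as its rescue, unc-119(+). The tagged GEI-8 thus comes from that transgene, and it was precipitated through its GFP. Whole animals of mixed sex were taken as L4 larvae at an age of 48 hours after synchronisation as starved L1 larvae, in 2 biological replicates that form 1 group. No strain without the tag, gei-8 mutant or other stage was analysed here, and chromatin of whole animals does not show in which cells a peak arises.

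MicroRNAs are short RNAs that guide an Argonaute protein to complementary sites in messenger RNAs, mostly in their 3′ UTRs. In the worm, ALG-1 and ALG-2 are the main microRNA Argonautes, and AIN-1 and AIN-2, relatives of GW182, bind them and bring in the enzymes that shorten poly(A) tails. NHL-2, a TRIM-NHL protein, PUF-9, a Pumilio-type RNA-binding protein, and LIN-66 act on targets of the same developmental timing pathway, which the microRNAs lin-4 and let-7 control.

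The sequences under the strongest upstream summits of 5 of the genes are shown first, because these positions carry most of what follows. Each is the window of 201 bases centred on the summit, read 5′ to 3′ on the strand of the gene, from the genome assembly ce11 (WBcel235). The windows are chrIII:4899805-4900005 on the minus strand for nhl-2, chrX:5841177-5841377 on the plus strand for puf-9, chrX:16612424-16612624 on the plus strand for ain-1, chrIV:13887593-13887793 on the plus strand for lin-66 and chrX:13945517-13945717 on the plus strand for alg-1. Capitals mark GAGAGA on either strand (TCTCTC when read on the printed one) and, in nhl-2, AGTGCA.
nhl-2: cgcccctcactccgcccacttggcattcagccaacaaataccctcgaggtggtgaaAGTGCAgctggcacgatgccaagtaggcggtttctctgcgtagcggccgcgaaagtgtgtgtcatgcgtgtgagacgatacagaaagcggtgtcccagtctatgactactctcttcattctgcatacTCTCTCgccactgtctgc
puf-9: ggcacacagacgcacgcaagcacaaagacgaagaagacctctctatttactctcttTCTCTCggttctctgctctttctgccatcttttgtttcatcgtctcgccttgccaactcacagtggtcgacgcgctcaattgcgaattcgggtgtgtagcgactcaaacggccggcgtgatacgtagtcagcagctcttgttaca
ain-1: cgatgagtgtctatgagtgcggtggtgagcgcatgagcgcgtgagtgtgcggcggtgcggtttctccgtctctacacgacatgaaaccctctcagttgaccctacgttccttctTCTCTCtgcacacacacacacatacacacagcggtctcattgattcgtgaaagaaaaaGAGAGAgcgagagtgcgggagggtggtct
lin-66: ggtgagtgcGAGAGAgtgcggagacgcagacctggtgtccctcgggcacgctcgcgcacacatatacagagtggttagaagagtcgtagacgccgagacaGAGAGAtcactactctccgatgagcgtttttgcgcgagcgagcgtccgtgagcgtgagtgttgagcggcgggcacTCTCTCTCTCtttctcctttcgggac
alg-1: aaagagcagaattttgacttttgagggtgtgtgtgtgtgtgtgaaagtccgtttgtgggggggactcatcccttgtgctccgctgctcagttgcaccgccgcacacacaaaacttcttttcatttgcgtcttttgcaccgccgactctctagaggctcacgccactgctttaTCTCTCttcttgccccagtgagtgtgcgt

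GAGAGA was in all 5 of these windows, but not in that of ain-2, whose strongest summit also lies upstream. It occurred once in nhl-2, puf-9 and alg-1, 2 times in ain-1 and 5 times in lin-66, where 3 of the matches overlap one another. Of the 1053 windows of the same length around all reproducible summits (defined in the next paragraph), 36.6% held it, 15.6% held it at least 2 times and 4.84% at least 5 times. In lin-66 a match starts at the summit base itself, 0 bp from it. AGTGCA, a nuclear receptor half-site, was in the nhl-2 window 44 bases before the summit, and 8.93% of the 1053 windows held it. Of the 9 motifs searched on both strands, the other 7 had no match in these 5 windows. They were the half-sites AGTTCA (in 10.5% of the 1053 windows), AGGTCA (in 5.79%) and AGGACA (in 7.98%), the tRNA B box core GTTCGANNC (in 14.4%), the GATA motif TGATAA (in 17.9%), the E-box CACGTG (in 13.7%) and the splice acceptor TTTCAG (in 14.3%). The GC content of the windows was 55.7% in nhl-2, 51.2% in puf-9, 54.2% in ain-1, 59.2% in lin-66 and 51.7% in alg-1, against a median of 45.3% over the 1053 windows (quartiles 40.3% and 49.8%). Of those windows, 19.5% had at least 51.2% GC. The windows at the strongest summits of alg-2 and ain-2, not printed, held no GAGAGA and had a GC content of 49.3% and 34.8%, and the ain-2 window held TTTCAG 1 time. Windows were also searched at 2 weaker summits near the innermost annotated start of alg-1, not printed. That at pooled rank 2700 had 49.8% GC and held GAGAGA 3 times. That at pooled rank 3158 had 34.3% GC, no GAGAGA and TTTCAG 1 time. The ain-2 summit, 2423 bp upstream, had a stronger pooled rank (2212) than the printed one of alg-1 (2374).

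GEI-8 peaks near the start of the gene were strong at nhl-2, puf-9 and ain-1, modest at lin-66, and weak or missing at both Argonaute genes and at ain-2. The authors' lists rank peaks by a signal value that can be compared between lists only by rank, with rank 1 the strongest. The pooled list and the list of each replicate hold 30000 peaks each, background included, and the reproducible list holds the 1053 strongest peaks of the pooled list. Within the promoter window, from 1000 bp upstream to 200 bp downstream of the 5′ end, 4 of the 7 genes had a reproducible summit, and so did 2.06% of all protein-coding genes. Among the 1053 strongest peaks of replicate 1 the count was again 4 of 7, against 1.85% of all genes, and among those of replicate 2 it was 3 of 7, against 2.17%. Since the genes were chosen with these peaks known, nothing is read from these shares. Over the whole gene span the counts were also 4, 4 and 3 of 7, in the reproducible list, replicate 1 and replicate 2, against 7.29%, 7.33% and 7.35% of all genes.

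**Figure D1:**
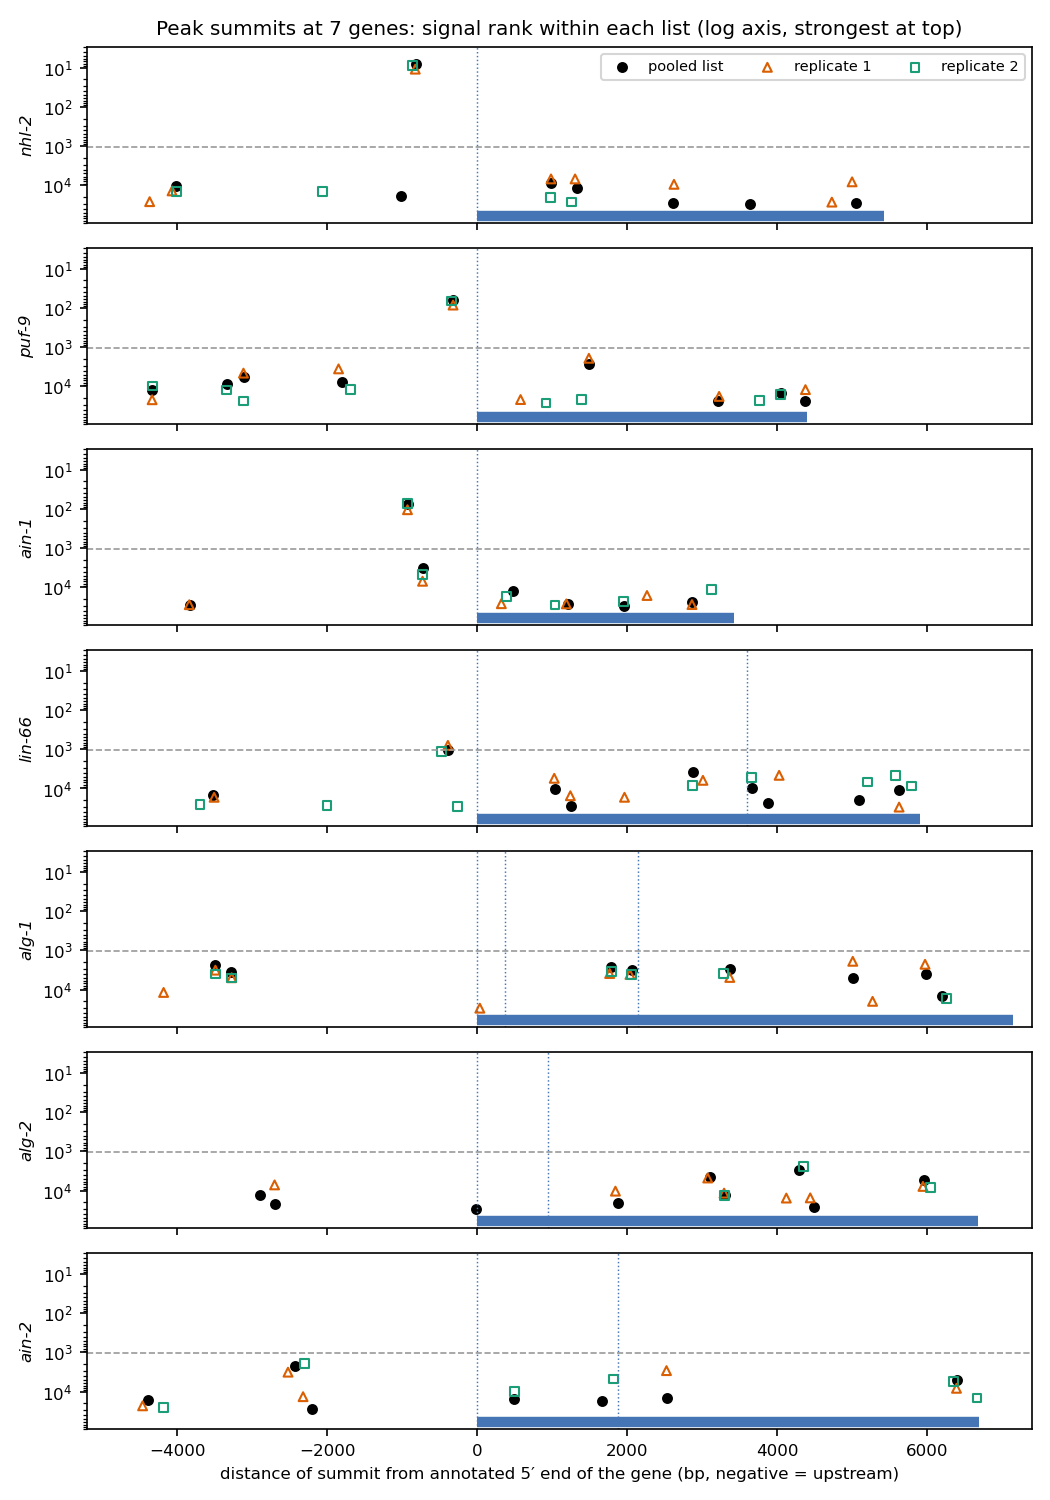
Peak summits of each gene by distance from its annotated 5′ end and by rank (log axis, strongest at the top), with black points for the pooled list, triangles for replicate 1 and squares for replicate 2. Blue bars are the gene bodies and dotted lines the annotated starts. The strongest pooled summits of nhl-2, puf-9, ain-1 and lin-66 stand above rank 1053 (dashed line), that of lin-66 falls past it in replicate 2 at 1146, and no summit of ain-2, alg-1 or alg-2 reaches it.

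nhl-2 had the strongest peak of the 7 genes. It ranked 8 in the pooled list, 11 in replicate 1 and 9 in replicate 2, with signals of 519, 271 and 251. Both replicates thus placed it near the top of their lists, at 3.84 times the signal of the peak at rank 1053 in replicate 1 and 3.95 times in replicate 2. The summit lay 820 bp upstream of nhl-2 and inside F26F4.14, an annotated noncoding RNA gene of 149 bp on the same strand. It also lay 603 bp upstream of tag-340, which is transcribed away from nhl-2 across a gap of 1422 bp, and so falls in the promoter windows of both genes. Among all protein-coding genes, 0.0401% had a stronger summit in their span. The next peak of the nhl-2 span ranked 8714 (6876 in replicate 1 and 20377 in replicate 2), with 12.2% of the signal of the first.

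puf-9, the Pumilio family member, had its strongest summit 315 bp upstream of its 5′ end. Its rank was 62 in the pooled list, 85 in replicate 1 and 67 in replicate 2, with signals of 305, 155 and 149. The summit lay inside 2 overlapping noncoding RNA genes on opposite strands, W06B11.7 of 181 bp and W06B11.9 of 177 bp. The neighbour dct-11 runs the other way across a gap of 1813 bp, and the summit lay 1499 bp upstream of it, outside its promoter window. A weaker puf-9 summit in a coding exon, 1493 bp inside the gene, ranked 2714 in the pooled list, 1929 in replicate 1 and 21411 in replicate 2, so the replicates placed it very differently. Of all reproducible peaks with a summit in the promoter window of a protein-coding gene, 52 of 361 (14.4%) had the summit inside an annotated noncoding RNA gene, as nhl-2 and puf-9 did.

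ain-1 and ain-2, the pair of GW182 relatives, differed in their upstream peaks. At ain-1 the strongest summit lay 927 bp upstream, near the far edge of the promoter window, and ranked 74 in the pooled list, 105 in replicate 1 and 72 in replicate 2, with signals of 292, 146 and 146. It was intergenic, the nearest annotated RNA gene (C06G1.12) was 3348 bp away, and the divergent gene F59C12.3 began 3000 bp from it. A second ain-1 summit 723 bp upstream ranked 3296, 6969 and 4710 in the pooled list, replicate 1 and replicate 2. ain-2, on chromosome I, had no pooled summit in the promoter window of its 5′ end. It has a second annotated start 1876 bp inside the gene, and there a pooled summit 216 bp upstream ranked 17153 and a replicate 2 summit 59 bp upstream ranked 4768. Its strongest pooled summit, 2423 bp upstream, ranked 2212 with a signal of 96.0 and a deposited q-value of 0.0613, and was the member peak closest outside the limit of rank 1053. That summit lay 267 bp upstream of B0041.5 and 281 bp upstream of B0041.12, in the promoter windows of both, and the gene ptps-1 lies between them and ain-2. In replicate 1 the nearest summit ranked 3194, and a summit in a coding exon of ain-2, 2526 bp inside the gene, was stronger at rank 2918. In replicate 2 the strongest summit of the span lay 2304 bp upstream at rank 1908.

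lin-66 had a summit 386 bp upstream that ranked 1032 in the pooled list, the member peak closest inside the limit. It ranked 799 in replicate 1 and 1146 in replicate 2, with a pooled signal of 125 and replicate signals of 77.3 and 61.6, so it was among the 1053 strongest of replicate 1 but not of replicate 2. The deposited q-value of this peak was 0.0063, against 0.000711 for the peaks of nhl-2, puf-9 and ain-1. No RNA gene overlapped the peak, although 17 piRNA genes are annotated in the span of lin-66. lin-66 also has a second annotated start 3596 bp inside the gene. Around it, pooled summits 721 bp upstream and 66 bp downstream ranked 3920 and 9848, with matching summits at 8299 and 5268 in replicate 2 and none within 100 bp in replicate 1. The gene thoc-7 lies upstream on the same strand across a gap of 3901 bp.

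At alg-1 the peaks were weak and of similar strength, and no more numerous in the pooled list than at nhl-2. The deposited q-values of its 8 pooled peaks ran from 0.0731 to 0.658. Its strongest pooled summit lay 3493 bp upstream and ranked 2374 in the pooled list, 3213 in replicate 1 and 4009 in replicate 2. The peak overlaps the noncoding RNA gene K02B9.6 of 54 bp, annotated on both strands, and the summit lay 93 bp outside that gene. alg-1 has annotated starts at its 5′ end and 379 and 2152 bp inside the gene. Summits 364 and 92 bp upstream of the innermost start ranked 2700 and 3158 in the pooled list. The first of these ranked 3915 in replicate 1 and 3532 in replicate 2, and the second 4138 and 4243. The next strongest pooled signal was 96.0% of the strongest. This share was also high at alg-2 (88.6%) and ain-2 (77.9%). It was 64.7% at lin-66, 29.5% at puf-9, 29.1% at ain-1 and 12.2% at nhl-2. Of the 8 pooled peaks, 7 ranked 5265 or better, which is 5 times the length of the reproducible list, and replicate 1 and replicate 2 held 7 and 5 such summits. Of these 7 pooled summits, 5 were matched within 100 bp in both replicates and 2 in replicate 1 only. These 2, in a coding exon and in the 3′ UTR, were the strongest alg-1 summits of replicate 1, at ranks 1909 and 2276, and ranked 5146 and 4008 in the pooled list. Among all protein-coding genes, 26 (0.13%) had 7 or more such summits in their span, and the median gene had 0. Both limits were chosen after the alg-1 peaks were seen. alg-1 measures 7152 bp, against a median of 2027 bp over all protein-coding genes, and the part of span length in this count was not tested.

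alg-2 had its strongest peaks inside the gene. The first lay in a coding exon 4298 bp from the 5′ end and ranked 3054 in the pooled list with a signal of 87.0 and a deposited q-value of 0.145, and in replicate 2 the matching summit ranked 2458. In replicate 1 no summit lay within 100 bp of the pooled summit, though a weaker summit at rank 15342 lay within 100 bp of that replicate 2 summit. The strongest replicate 1 summit of the span ranked 4784, in another coding exon. The promoter window of alg-2 held a pooled summit 14 bp upstream at rank 28733, close to the end of the list, with no summit within 100 bp of it in either replicate. Neither Argonaute gene had a summit on the reproducible list, but 14.7% of all protein-coding genes had a stronger summit in their span than alg-1 and 18.3% a stronger one than alg-2.

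**Figure D2:**
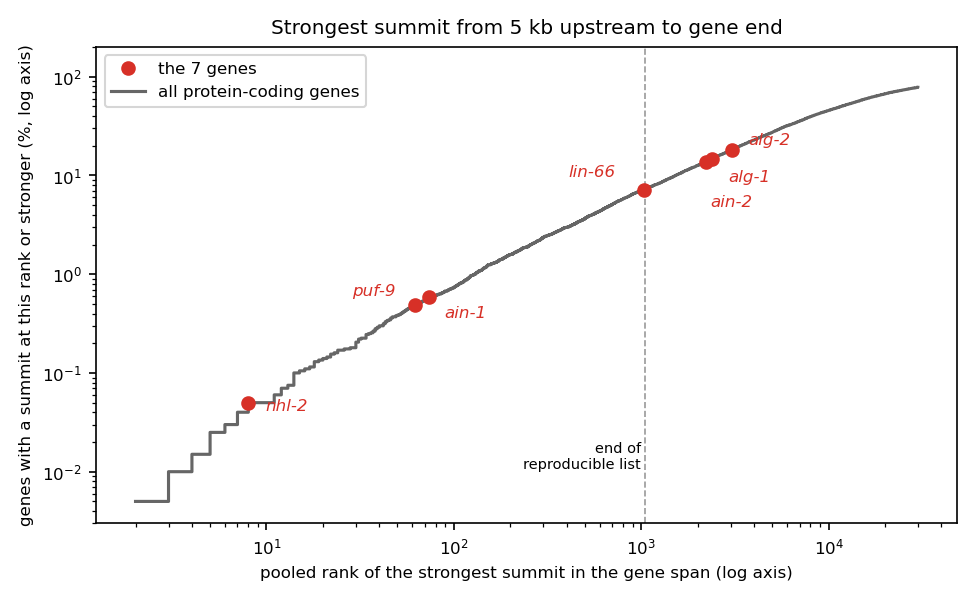
Share of protein-coding genes (percent, log axis) whose strongest pooled summit in the gene span is at or above each rank (log axis), with the 7 genes marked. nhl-2, puf-9 and ain-1 lie where less than 1% of genes do, lin-66 lies at the limit of the reproducible list, and ain-2, alg-1 and alg-2 lie beyond it.

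The order of the 7 genes by pooled rank was nhl-2 (8), puf-9 (62), ain-1 (74), lin-66 (1032), ain-2 (2212), alg-1 (2374) and alg-2 (3054), and the median gene with any peak in its span stood at 7903. The share of all genes with a stronger summit was 0.0401% for nhl-2, 0.481% for puf-9, 0.581% for ain-1, 7.18% for lin-66 and 13.8% for ain-2. The last 3 genes of this order changed places between the replicates, while the first 4 kept theirs. In replicate 1, puf-9 (85) stood before ain-1 (105), and in replicate 2 puf-9 (67) stood before ain-1 (72), a narrow gap. In replicate 1 alg-1 (1909, by the coding-exon summit with no match in replicate 2) stood before ain-2 (2918) and alg-2 (4784), while in replicate 2 ain-2 (1908) stood before alg-2 (2458) and alg-1 (3532). The spans of the 7 genes are long, and a longer span can hold more summits: the shortest of the genes measures 3421 bp, and 27.2% of all protein-coding genes are at least that long.

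The replicates placed the reproducible peaks of the 4 genes at like ranks. The larger of the replicate ranks was 1.22 times the smaller at nhl-2, 1.27 times at puf-9, 1.46 times at ain-1 and 1.43 times at lin-66, against a median of 1.87 (quartiles 1.37 and 2.98) over the 1044 reproducible peaks with a peak in both replicates. The replicate summits were 38 bp apart at nhl-2, 18 bp at puf-9, 1 bp at ain-1 and 84 bp at lin-66, against a median of 26 bp (quartiles 8 and 61 bp). Of the 1044 peaks, 650 were among the 1053 strongest of both replicates, as were those of nhl-2, puf-9 and ain-1.

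**Figure D3:**
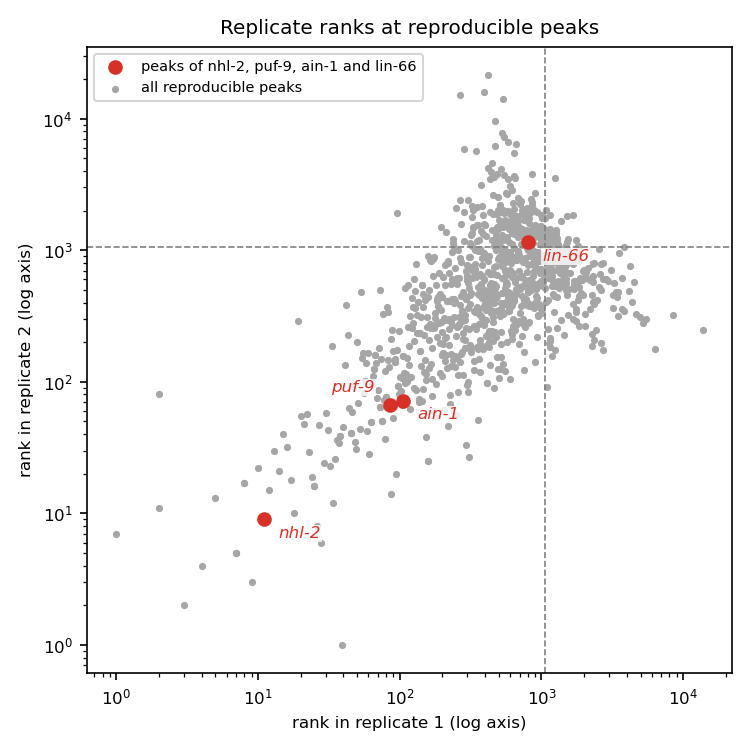
Rank in replicate 2 against rank in replicate 1 (log axes) for the reproducible peaks, with those of nhl-2, puf-9, ain-1 and lin-66 marked. Dashed lines stand at rank 1053, and lin-66 lies past that line in replicate 2.

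Beside the 4 reproducible peaks, the spans of the 7 genes held 53 weaker pooled peaks, 57 in all, and the lists of replicate 1 and replicate 2 held 53 and 44 peaks there. Per gene the pooled count ran from 7 at ain-1 and ain-2 to 9 at alg-2, puf-9 and lin-66. The density was 7.63 pooled peaks per 10 kb of span, against 3.08 over the merged spans of all protein-coding genes. By single gene it ran from 5.99 at ain-2 to 9.58 at puf-9, against a median of 2.77 over all genes. A density of at least 5.99 was found at 14.1% of genes. Of the 53 weaker peaks, 16 (30.2%) had a summit within 100 bp in both replicates, close to the 31.2% of all weaker pooled peaks, while 92.7% of reproducible peaks did. A further 29 were matched in 1 replicate and 8 in neither. The weaker peaks matched in both replicates were thus the smaller part.

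The genes whose strongest promoter summit had the nearest pooled rank, over the pooled list, were as follows. The replicate ranks in parentheses are those of the strongest summit in the promoter window of each gene, which need not be the pooled peak. For nhl-2 they were tag-340, by the same peak, and rpl-3, a ribosomal protein gene, at rank 5 (9 in replicate 1 and 3 in replicate 2). For puf-9 they were egl-17, a fibroblast growth factor gene, at rank 64 (65 and 111) and F54D5.9 at rank 59 (89 and 53). For ain-1 they were Y17G9B.5 and the ribosomal protein gene rpl-20, both by the same pooled peak at rank 73 (294 and 33). For lin-66 they were ZK180.8 (648 and 4312) and rfth-1 (648 and 1463), both by the same pooled peak at rank 1031.

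Other genes of the pathway were described from a list of 73 names by role, of which 69 matched a gene symbol and daf-21, ntl-1, tob-1 and puf-4 did not. A reproducible promoter-window summit was found at 5 of the 69 genes (7.25%), against 2.06% of all protein-coding genes, and in the strongest peaks of replicate 1 and replicate 2 at 5 and 7, against 1.85% and 2.17%. Over the gene span the counts were 14, 14 and 17 of 69, against 7.29%, 7.33% and 7.35%. The list was also chosen with earlier results of these data known, so nothing is read from these shares. Longer spans can hold more summits, and the part of span length in these counts was not tested. The median pooled rank of the strongest summit was 1032 for the 7 genes and 4776 for the 65 listed genes with a peak. Since the 7 genes were chosen with their peaks known, nothing is read from the gap between these medians.

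The 5 listed genes were ifet-1, a repressor that binds the cap-binding protein, pab-2, a poly(A)-binding protein, vig-1, a protein found in silencing complexes, ntl-2, a subunit of the CCR4-NOT deadenylase, and xrn-2, a 5′ to 3′ exoribonuclease. The ifet-1 summit, 510 bp upstream, ranked 55 (69 in replicate 1 and 75 in replicate 2), lay inside the noncoding RNA gene F56F3.10, and was shared with the promoter window of rps-1. pab-2 ranked 290 (268 and 384), vig-1 322 (244 and 728), ntl-2 336 (255 and 615) and xrn-2 603 (937 and 430). By role, the promoter count was 3 of 16 among silencing complex partners, 1 of 12 among deadenylases, 1 of 8 among decapping and decay genes, and 0 of 5, 8, 4, 9 and 7 among biogenesis genes, the other Argonautes, TRIM-NHL relatives of nhl-2, PUF relatives of puf-9 and genes of the let-7 and lin-4 axis. The other 9 of the 14 genes had a reproducible summit elsewhere in the span. It was upstream at ccf-1, at rank 228 (186 in replicate 1 and 376 in replicate 2), drsh-1, at 306 (292 and 423), and lin-41, at 852 (754 and 1680). It was in an intron at lin-42, at 479 (380 and 878), lin-28, at 513 (371 and 995), daf-12, at 640 (495 and 1197), lin-14, at 849 (453 and 786), and hrpk-1, at 971 (765 and 818). At ncl-1 it was in a 3′ UTR that an overlapping gene shares, at 447 (341 and 339).

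**Figure D4:**
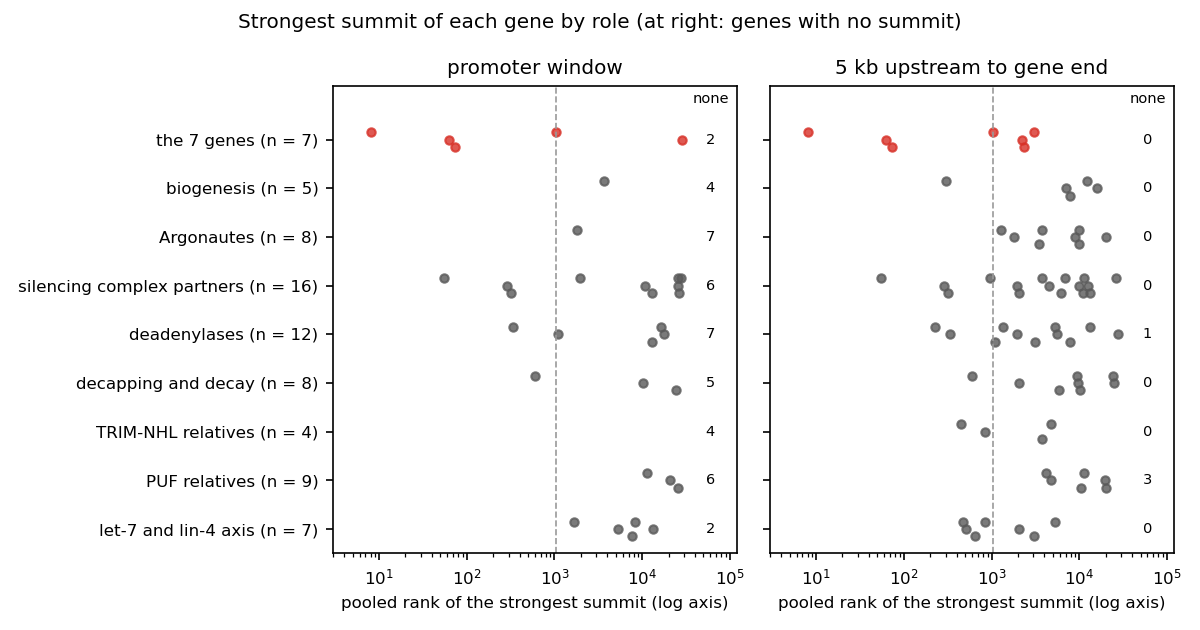
Pooled rank (log axis) of the strongest summit of the 7 genes and of the 69 listed pathway genes by role, in the promoter window (left) and the gene span (right), where the numbers count genes with no summit. Among the other Argonautes and the PUF relatives none reaches the limit of the reproducible list at rank 1053 in the pooled list. In replicate 2, not drawn, span summits of csr-1 (657), alg-5 (822) and hrde-1 (970) did, but they ranked 2568, 1842 and 6260 in replicate 1. nhl-2, puf-9 and ain-1, chosen with their peaks known, stand ahead of every listed gene with the exception of ifet-1, which at rank 55 lies between nhl-2 and puf-9.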

How the data were processed

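ChIP-seq of tagged GEI-8 was done on 2 replicates of L4 larvae, per the labels. The deposited signal of each peak is the authors' value, used to rank peaks within a list. The deposited −log10 q-value was turned into a q-value for description, and the summit is the deposited peak offset. Each list was called against a control alignment shared by the replicates, per the texts deposited beside the files, so the lists are not fully independent. Which aligner and peak caller were run is not stated in the labels or deposited texts. Alignments, control reads and signal tracks were not analysed here. No read counts were analysed, so the depth of each library is unknown.

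Genes came from Ensembl release 115 of WBcel235, which is the ce11 build of the files, and sequence came from the RefSeq genome of that build, with 1-based coordinates. Python 3.11.15, pandas 2.3.3 and numpy 2.4.6 were used, and window assignment was tested on simulated peaks. A gene took a summit when it lay in its window, so neighbours can share a peak. Replicate summits within 100 bp were taken as matched. The 7 genes and the pathway list were chosen with earlier results of these data known. All peaks of the 7 genes were examined. Of the listed genes, those with a reproducible promoter summit were named, with the 2 genes nearest in rank to each such member, and those with a reproducible summit elsewhere in the span were named after their values were seen. No test was made, since there is 1 group.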

Additional observations from a re-analysis of the deposited data

How the results depend on the processing

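The count of 4 of the 7 genes with a reproducible summit in the span ranged from 3 to 5 over the 8 alternatives run, and from 3 to 4 with 1 replicate alone. The share of all genes moved with the setting, from 3.64% to 13.2%, so each count is read beside its own share. It was 3 when each peak went to the gene with the nearest 5′ end, because the nhl-2 peak lies nearer tag-340 (3.64% of all genes), 4 with 2 times as many pooled peaks (13.2%), and 5 with 10000 bp upstream, which added ain-2 through a summit 8011 bp upstream at rank 773 in an exon of lmd-2 (11.2%). In the promoter window the count of 4 was 2 (lin-66 and puf-9) in the smaller window of 500 bp upstream to 100 bp downstream (1.34%), since the nhl-2 and ain-1 summits lie further out, and was 3 or 4 otherwise. It was 3 for summits among the strongest peaks of both replicates (1.32%), an alternative chosen after the data were seen. The 5 listed pathway genes (2.06% of all genes) became 9 with 2 times as many pooled peaks (3.58%), which added alg-5, cgh-1, lin-14 and ntl-11, and were 4 to 7 otherwise, 5 and 7 with 1 replicate alone. No paired analysis was possible because there is 1 group and no test.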

Other observations

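All 7 genes had a pooled summit in their own 3′ UTR, and this was noticed after the peaks were seen. The count was 7 of 7 in replicate 1 and 6 of 7 in replicate 2, where nhl-2 had none, against 5.97% of the 16790 genes with an annotated 3′ UTR in the pooled list, 5.75% in replicate 1 and 6.81% in replicate 2. The 3′ UTRs of the 7 genes are long, from 624 bp at ain-1 to 1628 bp at lin-66, against a median of 130 bp, and 5.38% of genes have one of at least 624 bp. Per kilobase of 3′ UTR the 7 genes had 1.26 summits in the pooled list, 1.03 in replicate 1 and 1.15 in replicate 2, against 0.314, 0.304 and 0.358 over all 3′ UTRs. The replicates mostly did not place the same summits there. Of the 11 pooled summits, 3 were matched within 100 bp in both replicates (at alg-2, ain-2 and lin-66), 7 in 1 replicate and 1 in neither. None of these summits was on the reproducible list. Their ranks ran from 4008 at alg-1 to 28948 at nhl-2 in the pooled list, with deposited q-values of 0.222 and 0.822 at these ends. Of the 53 weaker peaks of the 7 genes, 12 (22.6%) had the summit in a 3′ UTR, of which 11 in a 3′ UTR of one of the 7 genes, against 3.49% of all weaker pooled peaks, while 7 (13.2%) were in introns, against 28.7%. The part of 3′ UTR length in this pattern was not tested.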
